A study of Mus musculus with 96 samples.

Results

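Among 96 single neurons picked from the mouse preoptic area, 18 carry the label unknown in place of a temperature class, and these 18 cells are described here against the 78 cells that have a class. Membership followed the label alone, so no expression value chose the cells. The classified cells are 24 insensitive, 21 warm-sensitive and 5 cold-sensitive neurons, together with silent neurons, of which 18 are insensitive and 10 sensitive. All cells came from C57BL/6N mice aged 2 to 3 months, with no transgene and no drug named in the labels. Each was recorded by whole-cell patch clamp in a hypothalamic slice, drawn into a glass pipette, and its RNA was amplified with Smart-seq2, a protocol that copies whole polyadenylated transcripts of 1 cell. Why a cell was called unknown is not stated in the labels.

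The preoptic area lies at the front of the hypothalamus and helps to regulate body temperature, sleep and reproduction. Its neurons release either GABA, made by the glutamic acid decarboxylases Gad1 and Gad2 and loaded into vesicles by Slc32a1, or glutamate, loaded into vesicles by the Slc17a family, and many release a peptide as well. Firing and its dependence on temperature rest on sodium, potassium, calcium, HCN and TRP channels, several of which open or close with warmth or cold.

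No label names an animal, slice or recording day, so the cells of a group count as 1 sample, no test was made and the values describe these cells. Levels are given as CPM, a gene's counts per 1000000 of a cell's counts outside Rn45s, the ribosomal RNA precursor, and a gene is called detected in a cell at 10 CPM or more. A share of cells is given with its exact Clopper-Pearson 95% interval, which covers counting error only and treats cells as independent draws. A difference is the mean over unknown cells of log2(CPM + 1) minus the mean over classified cells, a scale that understates differences of low genes. A gene was eligible for comparison when 1 of the groups had it detected in 25% or more of its cells and in no fewer than 3. Of 76 eligible transmitter, peptide, channel and receptor genes, all 76 had a difference smaller than the standard deviation between cells in each group.

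The unknown cells held 756016 to 3660726 counts, with a median of 1065560, and Rn45s took a median of 42.2% of them against 58.5% in classified cells. Outside Rn45s the median was 619482 counts in unknown and 524177 in classified cells, and a median of 2797 against 2232 genes were detected. Over 4506 eligible genes the median difference was 0.53, and 1361 genes (30.2%) were higher by 1 or more while 279 (6.19%) were lower by 1 or more. The limit itself tilts these values, since 1277 of the genes passed it through the unknown cells alone and 375 through the classified cells alone. Over the 2854 genes that passed in both groups the median was 0.38, with 23.2% higher and 4.45% lower, and over 3457 genes detected in 25% of all 96 cells together it was 0.35. Counted from the median gene of all 4506, at 0.53, 512 (11.4%) were higher and 674 (15%) lower by 1 or more. The median depended on the class compared: it was 1.09 against warm-sensitive, 1.06 against silent sensitive, 0.55 against silent insensitive, 0.26 against cold-sensitive and -0.10 against insensitive cells. Cell titles end in a code with a letter from A to H whose meaning is not given, and 8 of the 18 unknown cells carry H, a letter shared with 4 classified cells; it is treated as a possible batch, and values of the 8 and of the other 10 cells are given beside the results that differ between them.

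The neuronal identity of the unknown cells was checked first. All 15 neuronal marker genes were eligible, and Snap25, Stmn2 and Stmn3 were detected in 18 of 18 unknown cells. Snap25, a vesicle fusion protein, ranged from 24.4 to 13197 CPM in unknown cells with a median of 2991, against 15.9 to 10578 and a median of 2365 in classified cells. The summed level of the 15 markers was 5888 to 25188 CPM in unknown cells and 1590 to 25910 CPM in classified cells, so the ranges overlapped and no unknown cell lacked neuronal RNA. Transcription factors known from the preoptic area and its neighbours were sparse. Zic1 was detected in 7 of 18 unknown cells, Six3 in 3, and Six6, Nkx2-1, Hmx2, Hmx3, Lhx8 and Lhx6 were at 0 counts in every unknown cell.

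GABA and glutamate genes came next. Gad1 or Gad2 was detected in 14 of 18 unknown cells (77.8%, interval 52.4% to 93.6%) and in 64 of 78 classified cells (82.1%, interval 71.7% to 89.8%). A vesicular glutamate transporter was detected in 10 of 18 unknown cells (55.6%, interval 30.8% to 78.5%) and in 31 of 78 classified cells (39.7%, interval 28.8% to 51.5%). Both kinds of gene were found in 6 unknown cells, GABA genes alone in 8, the glutamate transporter alone in 4 and neither in 0 (interval 0 to 18.5%). Among classified cells the numbers were 21, 43, 10 and 4 of 78. The intervals overlapped for every one of these patterns.

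Cells with GABA genes differed widely in level. Gad1 ranged from 0 to 2031 CPM over the unknown cells with a median of 171, and from 0 to 3903 CPM with a median of 90.9 over the classified cells. Gad2 ranged from 0 to 2736 CPM with a median of 15.1, against 0 to 7357 CPM with a median of 176. The differences were 0.21 for Gad1 and -0.40 for Gad2, both below the 0.53 of the median gene. The list of 5 GABA genes had a median of 0.17 over 4 eligible genes, which was -0.17 with DESeq2 size factors. Unknown cells 2, 3, 4, 5, 7, 11 and 15, numbered in order of deposit, had both enzymes, and among these Gad1 was lowest in cell 15 at 464 CPM. By contrast, cells 8, 12, 16 and 17 entered the count on a single enzyme at 11.5, 69.3, 19 and 11.1 CPM. At 1 count as the limit every unknown cell had a GABA gene, so this count turns on the limit.

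Slc32a1, the vesicular GABA transporter, was detected in 3 of 18 unknown cells, at 18.3, 91.6 and 129 CPM in cells 2, 3 and 4, and in 16 of 78 classified cells. Abat, which breaks GABA down, stood out of its list: it ranged from 0 to 2119 CPM in unknown cells with a median of 228, and from 0 to 1863 CPM in classified cells with a median of 7.42. It was detected in 15 of 18 unknown cells (83.3%, interval 58.6% to 96.4%) and in 36 of 78 classified cells (46.2%, interval 34.8% to 57.8%), a difference of 2.92 with standard deviations of 3.12 and 3.64. The 2 ranges overlapped. The intervals of the shares did not, but they treat cells as independent draws, and the classified share pools all classes.

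By class, Abat was detected in 17 of 24 insensitive (70.8%, interval 48.9% to 87.4%) but in 5 of 21 warm-sensitive cells. The interval of the insensitive cells overlapped that of the unknown cells. The difference of unknown cells was 1.33 against insensitive and 3.96 against warm-sensitive cells. All 10 unknown cells with letters other than H had Abat, against 5 of the 8 with letter H and 1 of 4 classified cells with H. On summed counts the difference was 0.86. The gene lies on chromosome 16 from 8513429 to 8621568 of mm10 on the plus strand.

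Of the 3 vesicular glutamate transporter genes Slc17a6 alone had counts in the unknown cells, and Slc17a7 and Slc17a8 were at 0 counts in all 18. Slc17a6 was found at 776, 181, 623 and 39.1 CPM in cells 1, 2, 6 and 9, and at 323, 1602, 574, 237, 830.1 and 683 CPM in cells 12, 13, 14, 15, 17 and 18. The median over the 18 cells was 109.9 CPM, against 2.09 CPM over classified cells, whose highest value was 1479 CPM. The difference was 1.68 with standard deviations of 4.30 and 3.65. Of these 10 cells 6 carry H, and the plot of 6 genes by group shows the split: 6 of 8 unknown cells with H had the transporter against 4 of 10 with other letters and 1 of 4 classified cells with H. Without letter H in either group the difference was 0.00033, so the higher level was found with the H cells and not without them. Letter and cell type cannot be told apart here.

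**Figure D1:**
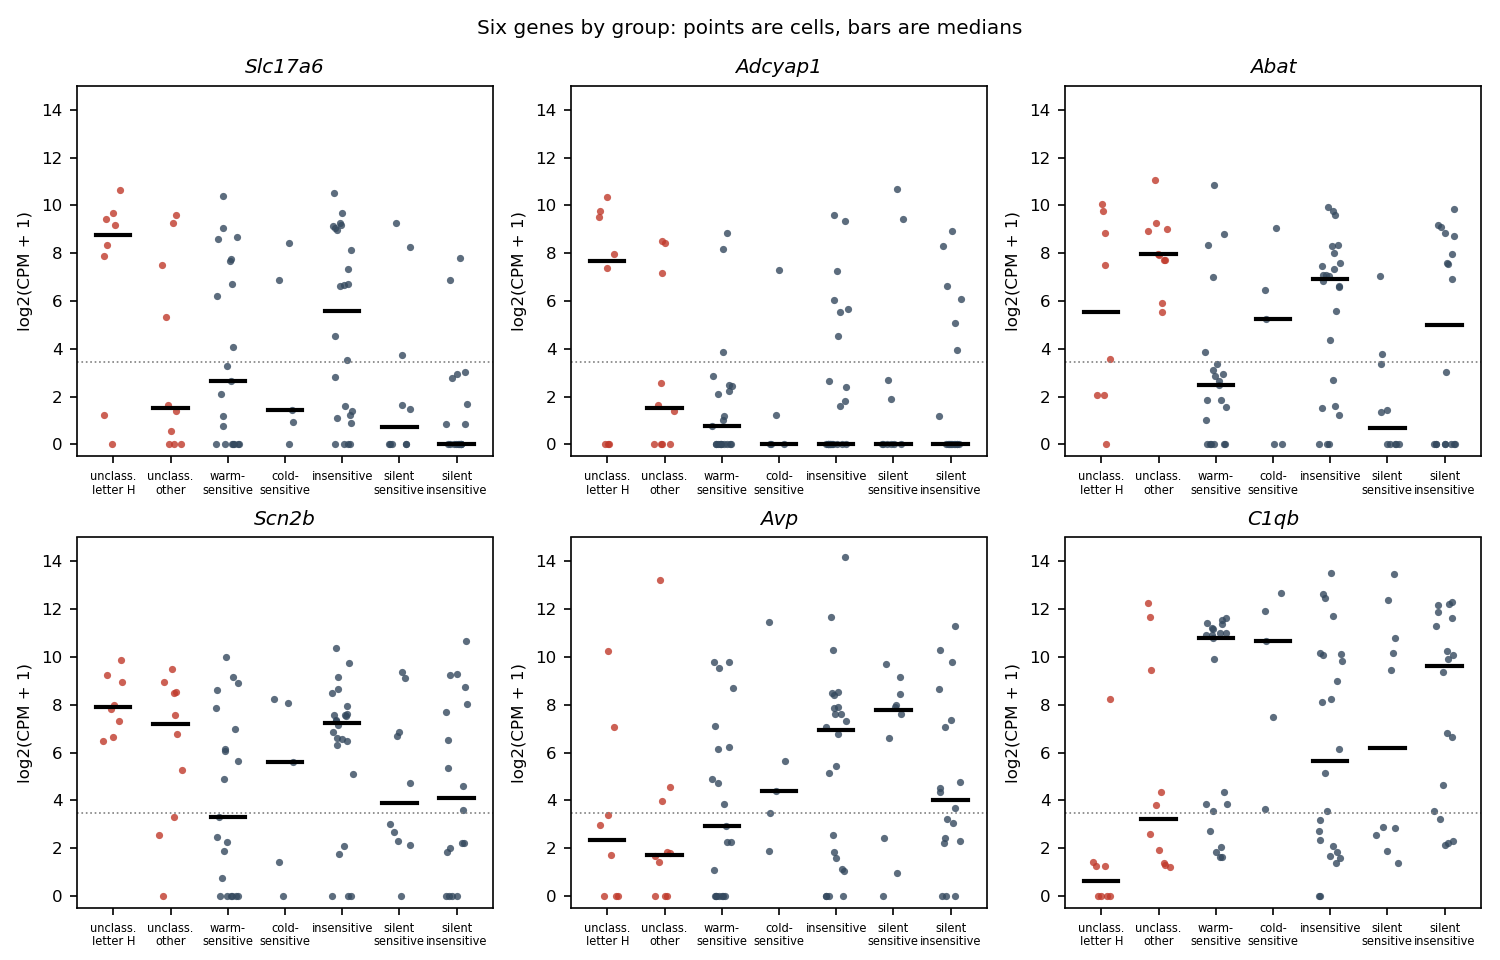
Level of 6 genes as log2(CPM + 1) in each cell, for the 8 unknown cells with letter H, the 10 with other letters, and the 5 classes; points are cells, bars are medians and the dotted line is 10 CPM. Slc17a6 and Adcyap1 are high in most unknown cells with H (6 and 5 of 8), and C1qb reaches 10 CPM in 1 of these 8.

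The class closest to the unknown cells in this gene was the insensitive one. Slc17a6 was detected in 14 of 24 insensitive (58.3%), 9 of 21 warm-sensitive, 2 of 5 cold-sensitive, 2 of 18 silent insensitive and 3 of 10 silent sensitive cells. The unknown share was 55.6%, and the difference in level was 0.16 against insensitive and 3.60 against silent insensitive cells. Gls2, an enzyme that makes glutamate from glutamine, was detected in cells 3, 4, 17 and 18 at 305, 193, 934 and 168 CPM, and in 5 of 78 classified cells. At 4 unknown cells it stayed under the 25% needed for the comparison.

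Markers of other transmitters were sparse. At least 1 of them was detected in 8 of 18 unknown and 32 of 78 classified cells. Of 13 genes for acetylcholine, monoamines, glycine and nitric oxide, none was eligible and 7 were at 0 counts in every unknown cell, among them Tph2, Slc6a4, Dbh and Hdc. Ddc, which completes dopamine and serotonin synthesis, was detected in 4 of 18 unknown and 18 of 78 classified cells, and its highest unknown value was 415 CPM in cell 14. Slc18a2, the vesicular monoamine transporter, was found in cell 6 at 670.1 CPM and Nos1, which makes nitric oxide, in cell 17 at 240.3 CPM. Chat was found in cell 1 at 45.0 CPM and Th, the first enzyme of dopamine synthesis, in cell 15 at 20.7 CPM. No unknown cell paired Th with Ddc at the limit of 10 CPM.

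**Figure D2:**
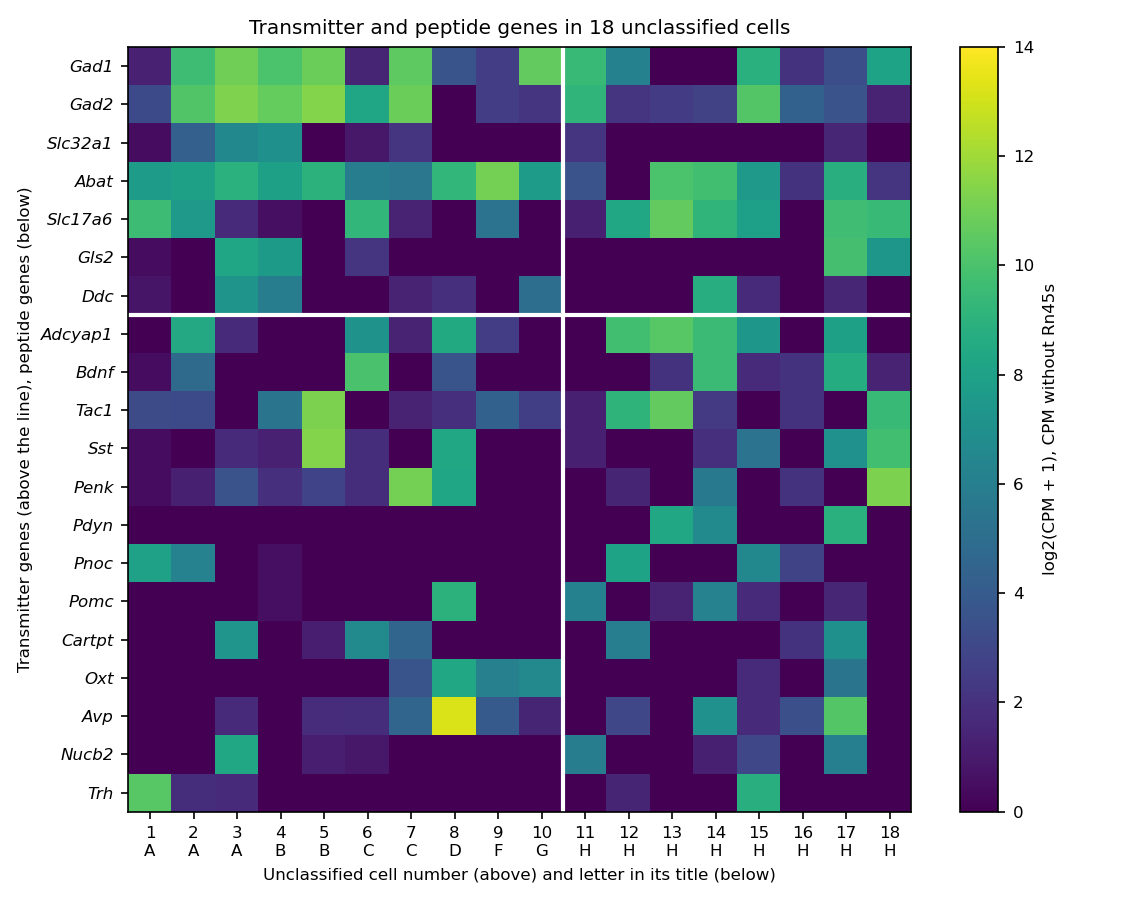
Transmitter genes (above the white line) and peptide genes (below it) in each of the 18 unknown cells, as log2(CPM + 1) in colour; letters under the cell numbers are those of the titles, and the 8 cells with H stand to the right. Slc17a6 and Adcyap1 are bright in cells 2, 6, 12, 13, 14, 15 and 17, and Avp is brightest in cell 8.

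The peptides formed the most uneven list. Of 33 genes, 17 were detected in at least 1 unknown cell, 9 were eligible, 1 was higher and 2 lower by 1 or more, beside 30.2% and 6.19% of all eligible genes. The median difference was 0.51 against 0.53 for all eligible genes, and on summed counts it was -0.82, so its direction depended on the summary. An unknown cell held 0 to 10 peptides with a median of 3, the same median as in classified cells. Cell 16 had none and cell 17 had 10, among them Hcrt at 264 CPM and Pmch at 174 CPM, peptides known from the lateral hypothalamus. No other unknown cell had either at 10 CPM.

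Adcyap1, which encodes PACAP and is known from warm-responsive preoptic neurons, was the peptide that was higher by 1 or more. It was found in cells 2, 6 and 8 at 344, 144 and 364 CPM and in cells 12, 13, 14, 15 and 17 at 879, 1326, 734, 168 and 251 CPM. That is 8 of 18 unknown cells (44.4%, interval 21.5% to 69.2%) against 19 of 78 classified cells (24.4%, interval 15.3% to 35.4%), and the intervals overlapped. The median was 3.53 CPM in unknown cells and 0 CPM in classified cells, with highest values of 1326 and 1669 CPM. The difference was 2.03, or 1.50 relative to the median gene. Adcyap1 passed the limit through the unknown cells alone, which favours a positive difference. It was positive against each class, from 1.68 against silent sensitive to 2.45 against cold-sensitive cells. By class, Adcyap1 was detected in 6 of 18 silent insensitive (33.3%), 7 of 24 insensitive (29.2%) and 2 of 10 silent sensitive cells. It was found in 1 of 5 cold-sensitive and 3 of 21 warm-sensitive cells (14.3%), so the warm-sensitive share was the lowest.

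Values of Adcyap1 also differed by letter. The gene was detected in 5 of 8 unknown cells with H, in 3 of 10 with other letters and in 0 of 4 classified cells with H. The difference was 1.84 when taken within letters and 0.78 without letter H. The value over all 18 cells was thus larger than that over the cells without H.

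Adcyap1 and Slc17a6 were found in the same cells. Of the 8 unknown cells with Adcyap1, 7 also had Slc17a6, which is 38.9% of the unknown cells (interval 17.3% to 64.3%). In the classified group 10 of 78 cells had both (12.8%, interval 6.32% to 22.3%), and 9 had Adcyap1 without Slc17a6. Of these 9, 5 were silent insensitive cells. Among insensitive cells 6 had both genes and 1 had Adcyap1 without Slc17a6, so this overlap was not particular to the unknown cells. The pair was found in 5 of 8 unknown cells with H (62.5%) and in 2 of 10 with other letters (20%), beside 0 of 4 classified cells with H and 6 of 24 insensitive cells (25%). The higher share of the pair thus came with letter H, and the 20% lay below that of insensitive cells. The exception among unknown cells was cell 8, which had Avp at 9466 CPM. Bdnf, a growth factor stored in the same kind of vesicle, was found in cells 2, 6, 8, 14 and 17, and all 5 also had Adcyap1. Bdnf and Adcyap1 occurred together in 8 of 78 classified cells, and the difference of Bdnf was 0.58, near the median gene.

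To show the regulatory sequence of the genes that these results turn on, the 250 bases before the RefSeq start are given for Slc17a6 and Adcyap1, which shared cells, and for Avp, which was lower. They come from RefSeq on build GRCm38.p6, at chr7:51621580-51621829 (plus strand), chr17:93198767-93199016 (plus strand) and chr2:130582589-130582838 (minus strand). Where RefSeq lists more than 1 transcription start, the one nearest to the start of the gene in the GENCODE M21 annotation was used. Capitals mark TGACG, the core of the cAMP response element, searched as TGACG and CGTCA on either strand.
Slc17a6: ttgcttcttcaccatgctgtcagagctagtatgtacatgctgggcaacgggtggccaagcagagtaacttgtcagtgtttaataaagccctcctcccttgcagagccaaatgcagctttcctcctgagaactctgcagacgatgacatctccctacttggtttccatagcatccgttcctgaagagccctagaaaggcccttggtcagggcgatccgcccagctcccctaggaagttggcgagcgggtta
Adcyap1: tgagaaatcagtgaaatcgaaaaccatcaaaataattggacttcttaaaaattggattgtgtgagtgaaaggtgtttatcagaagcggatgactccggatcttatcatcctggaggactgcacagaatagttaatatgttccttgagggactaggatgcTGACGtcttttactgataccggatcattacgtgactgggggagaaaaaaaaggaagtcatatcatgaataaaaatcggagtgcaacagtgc
Avp: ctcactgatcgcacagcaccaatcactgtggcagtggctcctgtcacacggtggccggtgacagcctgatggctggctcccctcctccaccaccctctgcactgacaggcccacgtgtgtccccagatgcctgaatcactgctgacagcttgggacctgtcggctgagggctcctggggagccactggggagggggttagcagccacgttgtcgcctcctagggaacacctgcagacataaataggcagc

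The Adcyap1 window held 1 match, 91 bases before the start, and the other windows held none. The same letters occur in 5836 of 32851 promoter windows of this length (17.8%), so a match is common and describes the letters alone.

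Avp, the gene of vasopressin, was the lowest of the eligible peptides. It was detected in 5 of 18 unknown cells (27.8%, interval 9.69% to 53.5%) and in 45 of 78 classified cells (57.7%, interval 46.0% to 68.8%), with medians of 2.37 and 25.8 CPM. The 5 unknown cells were cell 7 at 22.6, cell 8 at 9466, cell 9 at 14.6, cell 14 at 132 and cell 17 at 1202 CPM. The difference was -1.94, and it was negative against each of the classes, from -0.79 for warm-sensitive to -3.09 for silent sensitive cells. It shrank to -0.75 within letters and was 1.94 in the 12 cells with H, so its direction was not the same in every letter. The other peptide lower by 1 or more was Nucb2, the precursor of nesfatin, found in 3 of 18 unknown and 21 of 78 classified cells with a difference of -1.06. Leaving out any 1 of 27 cells took Nucb2 inside the limit, to -0.95 at most.

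The remaining peptides were found in a few unknown cells each. Tac1, the gene of substance P, was detected in 6 of 18, and in cell 5 it reached 2400 CPM beside Sst, the gene of somatostatin, at 2756 CPM. Penk, the gene of enkephalin, reached 2146 CPM in cell 7 and 2432 CPM in cell 18. Their shares were 33.3%, 27.8% and 27.8% of unknown cells against 32.1%, 24.4% and 17.9% of classified cells, with differences of 0.55, 0.51 and 0.44, all close to the median gene. Cartpt was detected in 5 of 18 against 9 of 78 cells and Oxt, the oxytocin gene, in 5 of 18 against 13 of 78. Sst, Penk, Cartpt and Oxt, like Bdnf, passed the limit through the unknown cells alone, which favours a positive difference. Pdyn, the gene of dynorphin, was found in cells 13, 14 and 17, all with letter H. Trh was detected in cells 1 and 15, at 1304 and 455 CPM, and in 18 of 78 classified cells.

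A further 12 peptide genes, such as Nts, Npy, Gnrh1, Kiss1 and Agrp, were at 0 counts in all 18 unknown cells. For each, 0 of 18 cells allows a share of up to 18.5% of cells with a count. Gal, a peptide of sleep-active preoptic neurons, was detected in 1 of 18 unknown and 3 of 78 classified cells. These levels are too sparse to compare.

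Proteins that pack and process peptides were detected more evenly than the peptides. Pcsk1n and Scg5 were detected in 18 of 18 unknown cells, Cpe in 17 and Scg2 in 16. Of 10 eligible genes, 4 (40%) were higher by 1 or more and 0 lower, beside 30.2% and 6.19% of all eligible genes. The 4 were Pam, which adds the amide end to peptides, at 1.51, Scg5 at 1.21, Chgb at 1.18 and the convertase Pcsk2 at 1.09. Pam ranged from 1.61 to 2406 CPM with a median of 184 in unknown cells and from 0 to 5262 CPM with a median of 29.1 in classified cells, and the ranges overlapped. Leaving out 1 of 6 unknown cells took Chgb under 1 (0.91 without cell 14), and 1 of 8 did so for Pcsk2 (0.80 without cell 6). The list's median difference was 0.63, close to the 0.53 of all eligible genes, and none of the 10 was 1 or more above the median gene.

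Ion channels were the larger group. Of 83 measured sodium, potassium, HCN, TRP and calcium channel genes, 71 were detected in at least 1 unknown cell and 32 were eligible. Of these 32, 11 (34.4%) were higher by 1 or more and 0 lower, beside 30.2% and 6.19% of all eligible genes; relative to the median gene 2 were higher and 2 lower. The share that was higher is thus near the background. An unknown cell had 3 to 38 channel genes with a median of 17.5, and a classified cell 1 to 37 with a median of 13. As a share of all genes detected in the cell, the medians were 0.594% and 0.542%. After thinning each cell to 100000 counts, with 1 classified cell left out as too shallow, the medians were 19.5 and 15 channel genes with a count. The medians of all genes with a count also differed after thinning, at 3042 in unknown and 2635 in classified cells.

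**Figure D3:**
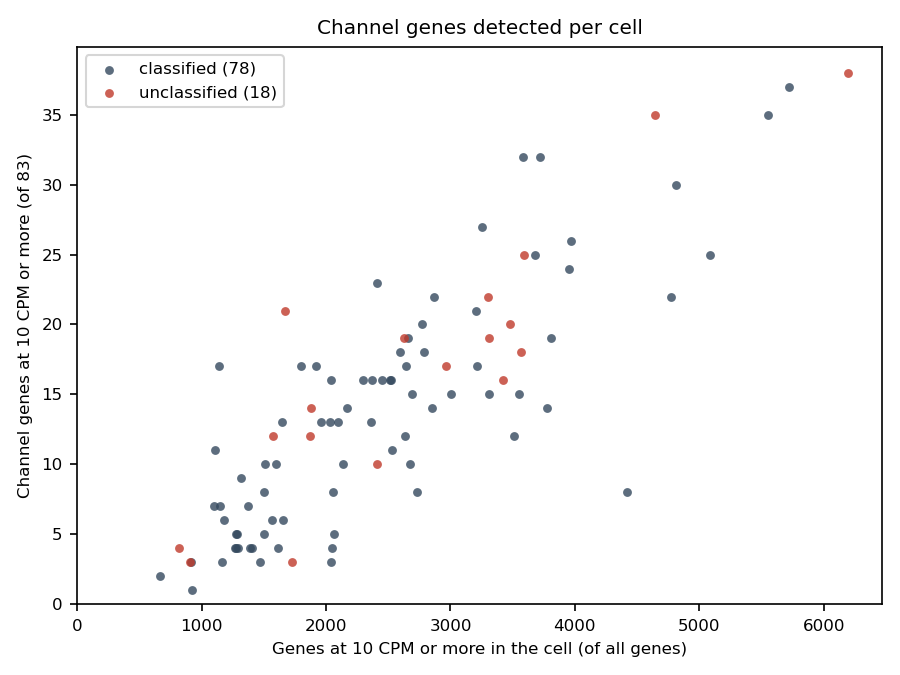
Channel genes at 10 CPM or more (of 83) against all genes at 10 CPM or more, 1 point per cell. Unknown cells, from 3 to 38 channel genes, lie among the classified cells, and cells with more genes detected have more channel genes in both groups.

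Sodium channels, which carry the upstroke of the action potential, had a median difference of 1.24, and 7 of 8 eligible genes lay above the median gene. Of the 8, 4 were higher by 1 or more and 0 lower, beside 30.2% and 6.19% of all eligible genes. Relative to the median gene 2 were higher by 1 or more and 0 lower, beside 11.4% and 15% of all eligible genes. The list's median was 0.43 on summed counts and 0.82 against silent cells. That of calcium channels was 0.91 and 1.06, so the order of these lists was not fixed. Scn2b, an auxiliary subunit, was detected in 15 of 18 unknown cells (83.3%, interval 58.6% to 96.4%) and 47 of 78 classified cells (60.3%, interval 48.5% to 71.2%). It ranged from 0 to 934 CPM with a median of 208 in unknown cells and from 0 to 1625 CPM with a median of 57.7 in classified cells. The difference was 2.02, with standard deviations of 2.65 and 3.46, and on summed counts it was 0.23. It was 2.92 against warm-sensitive and 0.78 against insensitive cells, of which 19 of 24 had the gene. All 8 unknown cells with H and 7 of the other 10 had Scn2b.

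Scn8a, Scn3b and Scn3a were also higher by 1 or more. Scn8a, a pore subunit of the axon initial segment, was detected in 8 of 18 against 23 of 78 cells with a difference of 1.71, which was 2.89 in letters other than H and -2.37 in H. Scn3a was detected in 9 of 18 against 24 of 78 cells with a difference of 1.50, and Scn3b in 7 of 18 against 18 of 78 with a difference of 1.52. The most often detected pore genes, Scn2a1 in 12 of 18 and Scn1a in 10 of 18 unknown cells, differed by 0.83 and 0.62. Nalcn, which carries a sodium leak at rest, was detected in 4 of 18 against 20 of 78 cells with a difference of 0.06.

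Potassium channels lay near the median gene as a list. Of 37 genes 34 were detected in an unknown cell and 15 were eligible, with a median difference of 0.61. Of these, 3 were higher by 1 or more and 0 lower, beside 30.2% and 6.19% of all eligible genes. The 3 were Kcnc4, of the fast delayed rectifiers, at 1.44, Kcnip4, a partner of A-type channels, at 1.31 and Kcnk2 at 1.10. Kcnk2 is a channel of the leak family known to respond to temperature. Kcnk2 was detected in 6 of 18 unknown cells, in 0 of 21 warm-sensitive and in 9 of 24 insensitive cells, so the unknown cells differed by 2.18 from warm-sensitive and by -0.0020 from insensitive cells. Kcnc4 was detected in 2 of 8 unknown cells with H and in 6 of 10 with other letters. Kcnip4 was at 0.93 without unknown cell 7, and Kcnk2 came under 1 without any 1 of 6 unknown cells, down to 0.76 without cell 4. Kcnt1 and Kcna2 had negative differences of -0.74 and -0.61.

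Channels with a known part in pacemaking or temperature sensing were sparse. Hcn2 was the eligible HCN gene, in 5 of 18 unknown against 11 of 78 classified cells with a difference of 0.69. Against all classified cells, the difference of Hcn2 was -0.56 for unknown cells with H and 1.68 for those with other letters. Among 17 TRP genes Trpm7 alone was eligible, with a difference of 0.53 equal to the median gene. For Trpm7 the same 2 values were -0.47 with H and 1.33 with other letters. Hcn2 and Trpm7 both passed the limit through the unknown cells alone, which favours a positive difference. Trpm2, a warmth-activated channel of preoptic neurons, was detected in 3 of 18 unknown cells (16.7%, interval 3.58% to 41.4%), at up to 57.5 CPM, and in 5 of 78 classified cells (6.41%, interval 2.11% to 14.3%). Trpv1, Trpv3, Trpm4, Trpm5, Trpm8 and Trpa1, among them the receptors for noxious heat and for cold, were at 0 counts in every unknown cell, which allows up to 18.5% of cells with a count for each.

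Calcium channel genes had a median difference of 1.05 over 7 eligible genes. Of the 7, 4 were higher by 1 or more and 0 lower, beside 30.2% and 6.19% of all eligible genes. The 4 that were higher by 1 or more, Cacnb1 at 1.25, Cacna2d1 at 1.25, Cacnb4 at 1.19 and Cacna2d3 at 1.05, encode auxiliary subunits, while the pore genes Cacna1e and Cacna1b differed by 0.69 and -0.22. Cacnb1 was found in 4 of 8 unknown cells with H and in 1 of 10 with other letters, and without letter H its difference was -0.18. Cacna2d1, the subunit bound by gabapentin, was found in 2 of 8 and in 6 of 10. Each of the 4 came under 1 without a single unknown cell: Cacna2d3 at 0.64 without cell 4, Cacnb4 at 0.81 without cell 13, Cacnb1 at 0.89 without cell 18 and Cacna2d1 at 0.92 without cell 17. Against insensitive cells alone the list's median was 0.01.

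**Figure D4:**
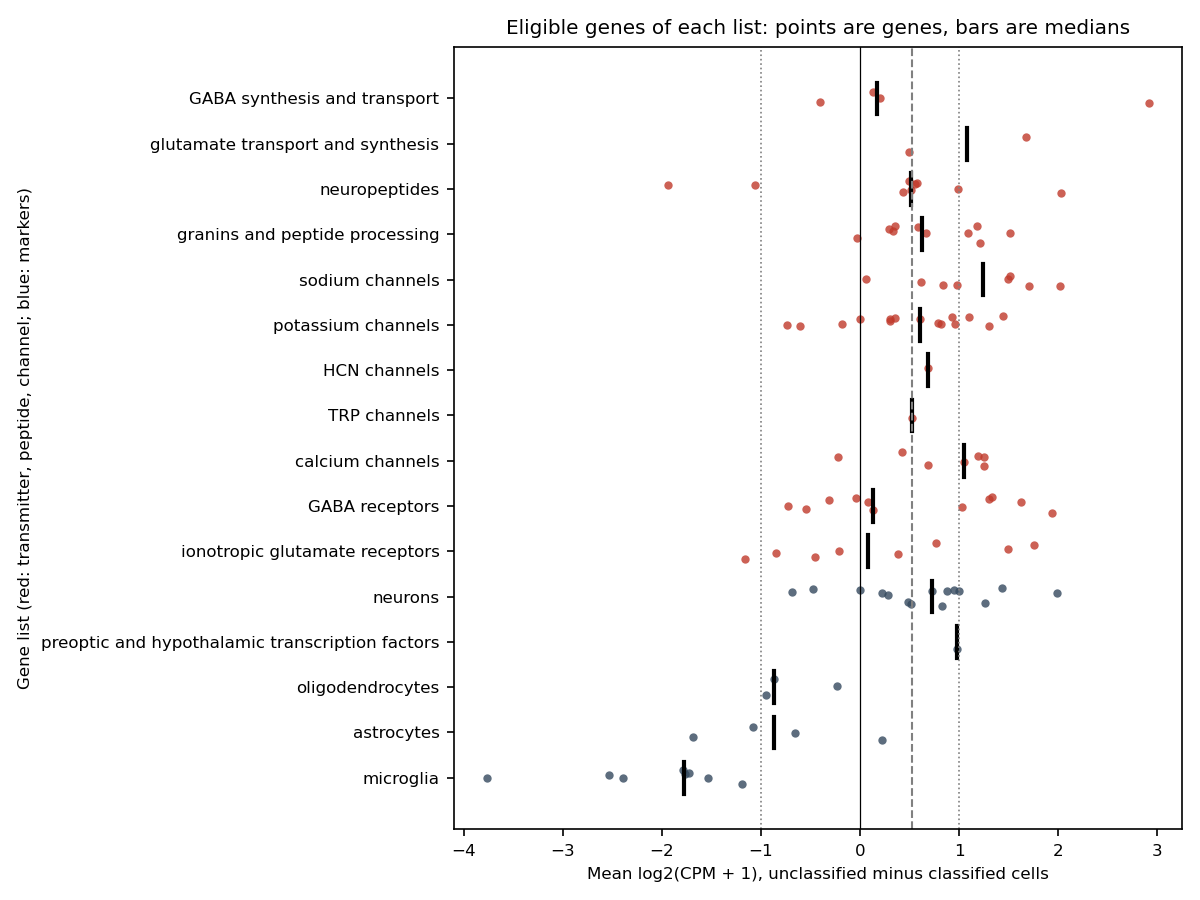
Differences of eligible genes by list, unknown minus classified cells, as mean log2(CPM + 1); points are genes, bars are list medians, the dashed line is the median of 4506 eligible genes (0.53) and dotted lines are at 1 and -1. Sodium and calcium channels (medians 1.24 and 1.05) lie to the right of the dashed line, and all 8 microglial markers lie to the left of -1.

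Receptors for the fast transmitters split within their lists. Of 11 eligible GABA receptor genes, 5 were higher by 1 or more and 0 lower, beside 30.2% and 6.19% of all eligible genes. Their median was 0.13, or -0.40 relative to the median gene. Gabrg1, a gamma subunit, ranged from 0 to 1076 CPM with a median of 4.22 in unknown cells and from 0 to 1388 CPM with a median of 0.903 in classified cells. It was detected in 8 of 18 against 23 of 78 cells with a difference of 1.62, and it was the list gene whose difference stayed at 1 or more under every alternative processing tried. Gabbr2, Gabbr1 and Gabra2, the first pair forming the metabotropic GABA-B receptor, differed by 1.33, 1.31 and 1.03. Leaving out any 1 of 40 cells took Gabra2 under 1, to 0.74 without unknown cell 4. Gabra2 also did not stay at 1 or more in 12 of 23 alternatives, and it was -1.12 in letter H alone. Gabbr2 was at 0.95 without cell 7.

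Among 8 eligible ionotropic glutamate receptor genes the median was 0.09, or -0.44 relative to the median gene, and -0.09 with DESeq2 size factors. Grik2, a kainate receptor subunit, was detected in 6 of 18 unknown cells (33.3%, interval 13.3% to 59.0%) and in 7 of 78 classified cells (8.97%, interval 3.68% to 17.6%), with a difference of 1.75 that was alike in both letter sets (1.74 and 1.31). Gria1, an AMPA receptor subunit, differed by 1.50 and was found in 6 of 8 unknown cells with H and 5 of 10 with other letters, and without H the difference was 0.01. Gria3, another AMPA subunit, was detected in 3 of 18 against 25 of 78 cells and differed by -1.16. Over all 12 lists of transmitter, peptide, channel and receptor genes, 25 of 76 eligible genes (32.9%) were higher and 3 lower by 1 or more, near the 30.2% and 6.19% of all eligible genes. Of the 76, 20 passed the eligibility limit through the unknown cells alone, which favours a positive difference. Of these 20, 7 (35%) were higher by 1 or more, beside 54.8% of all genes that passed in this way. Adcyap1, Scn3b, Kcnk2, Cacnb1, Cacna2d3, Gabbr2 and Grik2 are the 7 of these that were higher by 1 or more, and Nucb2 and Gria3 were lower after passing through the classified cells alone. Among the 50 that passed in both groups 18 (36%) were higher, beside 23.2% of all such genes.

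Markers of other cell types were compared as well. All 8 eligible markers of microglia, the immune cells of the brain, were lower by 1 or more in unknown cells, beside 6.19% of all eligible genes. Of the 8, 3 had passed the limit through the classified cells alone. The median difference of the 8 was -2.76 for unknown cells with H and -1.13 for those with other letters, each against all classified cells. C1qb was detected in 6 of 18 unknown cells (33.3%, interval 13.3% to 59.0%) and 54 of 78 classified cells (69.2%, interval 57.8% to 79.2%), with medians of 1.65 and 407 CPM and a difference of -3.76. The summed level of the 10 microglial markers ran from 3.07 to 12236 CPM in unknown cells, with a median of 77.8 CPM, and from 6.19 to 53129 CPM with a median of 1918 CPM in classified cells. It was at least 100 CPM in 8 of 18 unknown cells and in 14 of 21 warm-sensitive, 4 of 5 cold-sensitive, 17 of 24 insensitive, 7 of 10 silent sensitive and 14 of 18 silent insensitive cells. The summed median was 183 CPM in unknown cells with H and 77.8 CPM in those with other letters. This order was opposite to that of the differences, so the split by letter depended on the summary. The ranges of unknown and classified cells overlapped, and no marker of the 10 was undetected in all unknown cells.

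**Figure D5:**
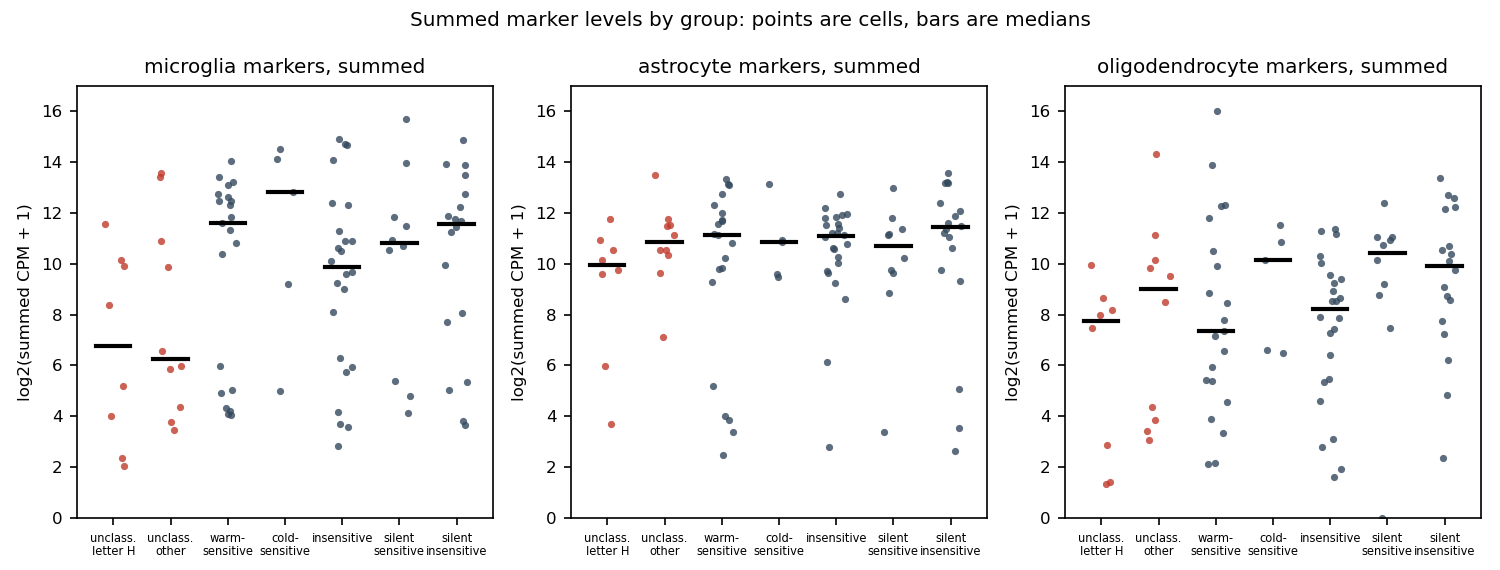
Summed CPM of microglial (10), astrocyte (9) and oligodendrocyte (9) marker genes per cell as log2(summed CPM + 1), by group; points are cells and bars are medians. The microglial median of the unknown cells (77.8 CPM) lies below that of each class (959.6 to 7366 CPM).

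Astrocyte and oligodendrocyte markers differed less. Slc1a3, a glutamate uptake carrier of astrocytes, and S100b, found in 6 of 18 unknown cells, were lower at -1.69 and -1.08, while Aldoc and Slc1a2 were at 0.22 and -0.66, and Aldh1l1 was detected in 0 of 18 unknown cells. Summed astrocyte markers had medians of 1482 CPM in unknown and 2243 CPM in classified cells, with ranges of 11.8 to 11664 and 4.51 to 12171 CPM. Summed oligodendrocyte markers had medians of 270.3 and 428 CPM, and unknown cell 2 held 20761 CPM. The median difference of 3 eligible oligodendrocyte markers was -1.43 for unknown cells with H and 0.25 for the others, each against all classified cells. Within letters it was -0.09, so its direction depended on the letter. For 4 eligible astrocyte markers the values were -1.33 with H, -0.85 with other letters and -1.08 within letters. In letter H alone, against its 4 classified cells, the astrocyte median was positive and S100b was at 1.98. The direction for astrocyte markers with H thus depended on the cells compared. No marker of endothelium or ependyma reached 10 CPM in an unknown cell. The part of glial RNA in the differences of neuronal genes was not tested.

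Outside the lists, the named genes with the largest positive differences among eligible genes were Coa3 at 3.56, a mitochondrial assembly factor, Pcyox1 at 3.49, Arf3 at 3.45, a small GTPase of the Golgi, Clip1 at 3.28, a microtubule plus-end protein, Cops8 at 3.23, Slbp at 3.22 and Btrc at 3.01. Coa3 was detected in 16 of 18 unknown cells against 34 of 78 classified cells, among them 19 of 24 insensitive but 3 of 21 warm-sensitive cells. Against insensitive cells alone its difference was 0.87. Slbp, which binds histone messenger RNA, was detected in 11 of 18 unknown cells (61.1%, interval 35.7% to 82.7%) against 13 of 78 classified cells (16.7%, interval 9.18% to 26.8%), and Pcyox1, an enzyme that breaks down prenylcysteine, in 13 of 18 against 28 of 78. Slbp passed the limit through the unknown cells alone. Against insensitive cells the differences of Slbp, Pcyox1 and Clip1 were 2.84, 3.04 and 2.81, each smaller than the standard deviation over the unknown cells (4.01, 3.77 and 3.18), and the intervals of the shares overlapped.

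The named genes with the largest negative differences held several known from macrophages and microglia. Beside C1qb and C1qc they were Laptm5 at -3.75, Cd68 at -2.75, Copz1 at -2.69, Bin2 at -2.57, Ptgds at -2.51 and Tmbim4 at -2.50. Laptm5, Cd68, Copz1, Bin2 and Tmbim4 passed the limit through the classified cells alone. Cd68 and Bin2, which are known from phagocytes, were detected in 0 of 18 unknown cells (interval 0 to 18.5%) against 24 and 21 of 78 classified cells. Ptgds, which makes prostaglandin D2, was detected in 15 of 18 against 76 of 78 cells with medians of 106 and 789 CPM. The 3 unknown cells without it all carry H: it was detected in 5 of 8 unknown cells with H (median 24.01 CPM), in 10 of 10 with other letters (median 454 CPM) and in 4 of 4 classified cells with H. The differences from all classified cells were -4.37 with H and -1.02 with other letters. Cell 6 held 96481 CPM of it, and on summed counts the difference was 0.0065.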

How the data were processed

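Single-cell RNA was sequenced from 96 preoptic neurons that had been patch-clamped, as the labels' protocols state. The authors deposited 2 tables, one of whole read counts by gene and cell and the other of normalized signal values. The submitters' processing notes name FastQC, STAR, edgeR and mm10. Annotation, counting and strand use: not given in the sources used here. The table holds 24054 genes, 7772 with no count.

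CPM was taken over each cell's counts without Rn45s, since the share of this gene differed between groups, and scaled to 1000000. Differences, eligibility and intervals are defined with the results. The members, gene lists and limits were chosen with earlier results of these data known. Named genes were list members, and the 8 eligible genes per direction with the largest difference whose share and within-letter difference had the same sign and which kept at least 2/3 of it without any 1 cell. Predicted, ribosomal protein and mitochondrially encoded genes were left out of that ranking. List symbols were matched to 1 gene of GENCODE M21 for 252 of 253 entries. No 2 cells correlated above 0.430 in log2 values. Some list members enter the counts and medians but are not reported here by name. Scripts were tested on simulated data.

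Alternatives changed the totals (with Rn45s, TMM from edgeR, DESeq2 size factors, the deposited signal values), the pseudocount, detection limit, depth, letters and classes compared, and each cell was left out in turn. The comparison with insensitive cells alone and the limit over all 96 cells together were added with the data seen. Tools were Python 3.11.15 (pandas 2.3.3, numpy 2.4.6, matplotlib 3.10.9, scipy 1.17.1) and R 4.3.3 (DESeq2 1.42.0, edgeR 4.0.16).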

Additional observations from a re-analysis of the deposited data

How the results depend on the processing

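The number of genes higher by 1 or more was 1361 and the number lower 279. It was 726 and 353 with DESeq2 size factors, 457 and 89 with a pseudocount of 10 CPM, 741 and 505 on summed counts, 512 and 674 relative to the median gene, 692 and 1392 against the 24 insensitive cells alone, and 825 and 246 of 3457 genes with the limit of 25% set over all 96 cells together, both alternatives chosen after seeing the data. The number lower was also 116 with Rn45s in the totals, 434 with a pseudocount of 0.1 CPM, 421 with no limit on low genes and 585 in letter H alone (8 against 4 cells). Leaving out each cell gave 1094 to 1572 higher and 243 to 374 lower. With detection at 1 count, 100% of unknown cells had a GABA gene and 77.8% a GABA and a glutamate gene. In letter H alone the list medians were -3.51 for GABA synthesis, 2.02 for potassium channels, -0.42 for neurons and 0.97 for astrocytes, on summed counts that of neuropeptides was -0.82, and against insensitive cells that of neurons was -0.26. Differences turned sign in letter H alone for Avp (1.94), Chgb (-3.03), Pcsk2 (-0.89), Scn8a (-2.37), Kcnip4 (-1.45), Gabra2 (-1.12), Gria3 (2.23), Nefl (-0.42), S100b (1.98) and Aif1 (0.16), without letter H for Cacnb1 (-0.18), on summed counts for Gabbr1 (-0.20) and Ptgds (0.0065), and against insensitive cells for Kcnk2 (-0.0020); the cause was not tested. Letter H holds 12 cells, and many genes were found in few cells, which limits these values. No paired analysis was possible because the labels number no replicates: cells were numbered in order of deposit. After thinning, Slc17a6 had a count in 11 of 18 unknown and 34 of 77 classified cells, Adcyap1 in 8 and 20, and Avp in 5 and 47.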

Other observations

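Some values belong in no comparison. Pgr, the progesterone receptor gene, which marks hormone-responsive preoptic neurons, was detected in 3 of 18 unknown and 7 of 78 classified cells. The oestrogen receptor gene Esr1 was detected in 0 of 18 against 4 of 78. Kcnn2, a calcium-activated potassium channel, was detected in 4 of 18 against 4 of 78 cells with a difference of 1.22, but did not reach the eligibility limit. Cspg4, a marker of oligodendrocyte precursors, was the one of 4 such markers detected in an unknown cell, and the summed level of the 4 reached 3114 CPM in that group.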
